A study of Mus musculus with 4 samples.

Results

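The cells described here are tumor-associated microglia that carried few transcripts of the classical MHC class II genes. They were picked in the 3 tumor libraries of a mouse glioma study by counts of unique molecular identifiers (UMIs, 1 per captured transcript). A barcode needed at least 200 detected genes, at most 10% mitochondrial UMIs, at least 3 UMIs over the microglial genes Tmem119, P2ry12, Gpr34, Sparc and Sall1, and 0 over Cd3d, Cd3e and Cd3g. Of the 979 tumor barcodes that met these conditions, the 282 with at most 4 UMIs over H2-Aa, H2-Ab1 and H2-Eb1 are called class II-poor, and the other 697 class II-rich. They were 282 of 7274 tumor barcodes and of 8694 barcodes in the series. The cells were thus chosen by measured values, the UMIs of the class II and microglial gate genes, and the levels of those genes are given as a description.

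The hosts were C57BL/6J mice aged 8 to 12 weeks that received cells of Glioma-005, a mouse glioma line, into the hippocampus, and antibodies were given from day 7. The IgG group received an isotype control (IgG2a, clone LTF-2), the anti-CTLA-4 group received clone 9H10, and the depletion group received anti-CTLA-4 together with the CD4-depleting clone GK1.5. Tumors were collected on day 35, with 3 tumors pooled into 1 library per group, and a library of normal brain without tumor stood beside them. Every tumor group thus shared the same tumor line and an antibody schedule, and every library came from perfused, papain-dissociated tissue. Microglia (CD45int CX3CR1+), myeloid cells, T cells and the remaining immune cells were sorted and mixed at equal ratios, so no share of all brain cells can be read. With 1 library per group there was no replicate, no test was possible, and treatment cannot be told apart from library. All intervals below are 95% intervals that cover counting error only, not the differences between mice or between cells.

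Microglia are the resident macrophages of the brain parenchyma. In the healthy brain they carry a homeostatic set of surface receptors, sensors and secreted proteins that depends on TGF-beta signalling, and they hold almost no MHC class II. MHC class II presents peptides to CD4 T cells and is induced in microglia mainly by interferon-gamma through the transactivator CIITA, which acts at a conserved promoter module of W, X and Y boxes.

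The promoters of the class II genes are shown because their transcripts were low together in these cells by choice. Both windows run 5′ to 3′ from 250 bases before to 50 after the RefSeq start (GRCm38.p6), and the capitals mark the Y-box letters CTGATTGG. H2-Aa encodes the alpha chain of I-A and lies on the minus strand at chr17:34287774-34288073. H2-Eb1 encodes the beta chain of I-E and lies on the plus strand at chr17:34305617-34305916.
H2-Aa: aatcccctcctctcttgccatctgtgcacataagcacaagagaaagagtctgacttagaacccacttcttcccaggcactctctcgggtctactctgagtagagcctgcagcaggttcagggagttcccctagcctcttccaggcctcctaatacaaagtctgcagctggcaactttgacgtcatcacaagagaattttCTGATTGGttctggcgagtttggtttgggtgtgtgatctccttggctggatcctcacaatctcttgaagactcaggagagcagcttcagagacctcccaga
H2-Eb1: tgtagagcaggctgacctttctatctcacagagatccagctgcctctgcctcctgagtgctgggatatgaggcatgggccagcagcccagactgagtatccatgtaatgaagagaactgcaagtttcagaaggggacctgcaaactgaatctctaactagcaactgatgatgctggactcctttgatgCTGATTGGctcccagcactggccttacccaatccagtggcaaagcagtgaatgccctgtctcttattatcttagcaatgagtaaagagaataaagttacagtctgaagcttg
These letters, on either strand, were in 1346 of 32851 RefSeq promoter windows of the same length (4.10%). The windows of the class II gene H2-Oa and of one start of Spp1 also held them, and the window of P2ry12 did not. A match of letters is a description and not a binding site.

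The class II-poor cells were few in the IgG and anti-CTLA-4 libraries and many in the depletion library. They were 20 of 253 gated microglia under IgG (7.91%, exact Clopper-Pearson interval 4.90 to 11.9), 19 of 206 under anti-CTLA-4 (9.22%, 5.64 to 14.0) and 243 of 520 under depletion (46.7%, 42.4 to 51.1). In healthy brain the same conditions held for 793 of 795 gated microglia (99.7%). The depletion share lay far above the intervals of the other 2 tumor libraries and below the healthy share. No member barcode was shared between libraries, and 0 to 6 barcodes of any kind were shared by a pair.

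A fixed limit of 4 UMIs is easier to meet in a shallow cell, and class II-poor cells were shallower than class II-rich ones. Their median depth was 4075, 4378 and 4984 UMIs per cell under IgG, anti-CTLA-4 and depletion, against 6383, 5559 and 7278 in class II-rich cells. Depletion had the highest share of the 3 tumor libraries in every depth range above 1000 UMIs, while the order of IgG and anti-CTLA-4 varied between ranges. Between 2000 and 4000 UMIs the class II-poor share was 20% of 30 cells under IgG, 15.9% of 44 under anti-CTLA-4 and 64.0% of 100 under depletion. Above 8000 UMIs it was 2.53% of 79, 0% of 51 and 29.8% of 171, where 0 of 51 allows up to 6.98% by the exact interval. When gated cells were thinned to 1000 UMIs, 15, 1 and 8 shallower cells under IgG, anti-CTLA-4 and depletion and 21 in healthy brain were left out. Of the remaining 238, 205 and 512 tumor cells, 6.72%, 8.29% and 43.2% had no class II UMI left, against 97.7% of 774 in healthy brain. T cells were taken as barcodes with at least 3 CD3 UMIs and no UMI of the 5 microglial gate genes. Thinned T cells without class II were 87.9%, 86.3% and 92.0% in the same tumor libraries.

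**Figure D1:**
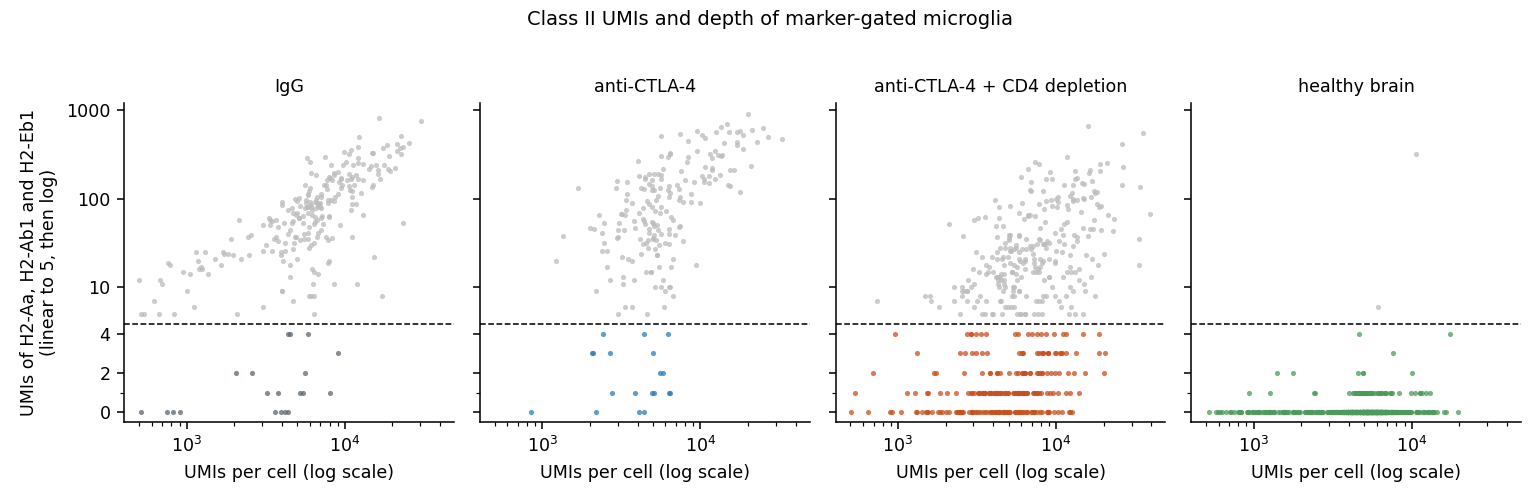
Summed UMIs of H2-Aa, H2-Ab1 and H2-Eb1 (y axis, linear to 5 and then logarithmic) against UMIs per cell (x axis, log scale) for each gated microglial cell, 1 panel per library. The dashed line separates the class II-poor cells (colored, at most 4 UMIs) from the class II-rich ones (grey); 243 colored points lie in the depletion panel and 20 and 19 in the other tumor panels.

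**Figure D2:**
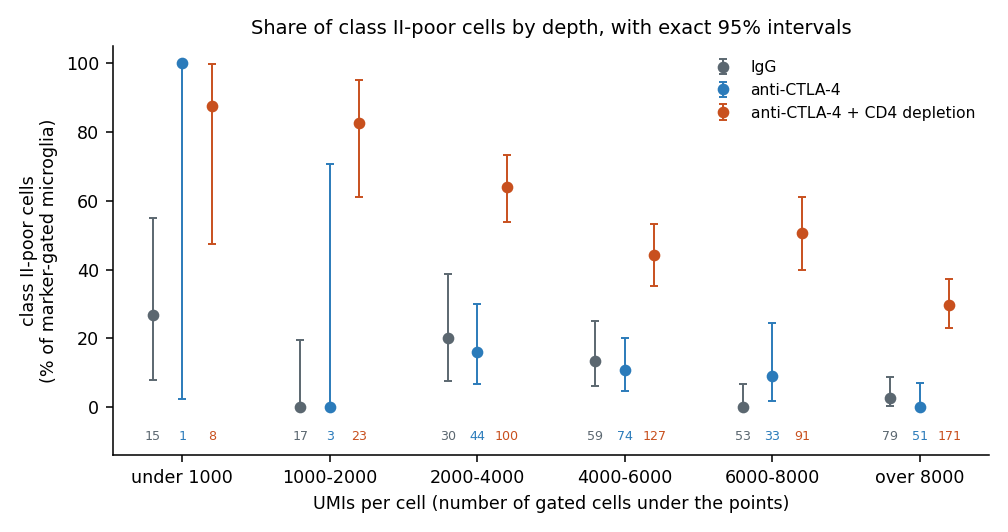
Class II-poor cells as a percentage of gated microglia (y axis) in ranges of UMIs per cell (x axis) for the 3 tumor libraries, with exact 95% intervals. Between 2000 and 4000 UMIs the depletion library stood at 64.0%, above IgG at 20% and anti-CTLA-4 at 15.9%.

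The limit fell in a sparse region under IgG and anti-CTLA-4 and in a filled one under depletion. At exactly 4 class II UMIs there were 3, 3 and 19 cells under IgG, anti-CTLA-4 and depletion, and at exactly 5, just outside, 6, 2 and 17. The 6 IgG cells at 5 UMIs had a median of 748 UMIs in all, so that some shallow cells with a high class II share were kept out and some with none were let in. Of the members, 8, 4 and 88 had no class II UMI.

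The 3 genes that set the limit were low together, in counts per 1000000 UMIs of the pooled cells (CPM). H2-Ab1, the beta chain of I-A, stood at 203, 208 and 121 CPM in class II-poor cells under IgG, anti-CTLA-4 and depletion, against 5131, 7709 and 2033 CPM in class II-rich cells. Cd74, the invariant chain that escorts class II and was no part of the choice, stood at 1116, 688 and 481 CPM, against 13777, 18832 and 5289 CPM. Class II-poor cells were therefore low in Cd74 in every library, yet stayed above the 72.3 CPM of healthy microglia. The class II genes were also lower in the class II-rich cells of the depletion library than in those of the other 2 tumor libraries. Ciita, the class II transactivator, was at 2, 0 and 3 UMIs in the class II-poor pools, too few to compare.

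Free RNA sets how low class II can read in a droplet library. Class II-poor cells carried 3.30, 4.42 and 2.18 class II UMIs per 10000 under IgG, anti-CTLA-4 and depletion, and T cells of the same libraries, which should lack these genes, carried 4.17, 4.24 and 4.49. A class II UMI was seen in 60%, 78.9% and 63.8% of class II-poor cells and in 37.7%, 42.9% and 27.5% of T cells, whose median depths were 5328, 5408 and 4094 UMIs. The pooled class II level of the class II-poor cells was thus close to or below that of T cells, while the share of cells with a UMI was above that of T cells. The limit of 4 UMIs caps the class II-poor cells and not the T cells, so these values do not tell class II expression from free RNA.

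Most cells held a microglial gene that had no part in the choice. Cx3cr1, the fractalkine receptor, had a UMI in 20 of 20, 17 of 19 and 224 of 243 class II-poor cells under IgG, anti-CTLA-4 and depletion, and in 11.7%, 13.1% and 8.33% of T cells. By the choice itself, and so as a description, at least 3 of the 5 gate genes were seen in 19 of 20, 18 of 19 and 195 of 243 cells. Spp1, given as a marker of these cells, was seen in none of the 20 IgG cells, in 1 of 19 anti-CTLA-4 cells and in 59 of 243 depletion cells, so it does not mark the class II-poor cells of the first 2 libraries.

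Genes of other cell types were present at levels that varied between pools, and 1 cell could carry most UMIs of a gene in the small pools. The summed level of 12 macrophage genes was 3093, 1610 and 2872 CPM in class II-poor cells under IgG, anti-CTLA-4 and depletion, against 3512, 4666 and 4376 CPM in class II-rich and 632 CPM in healthy microglia, and 4, 7 and 0 of the 12 were at 0. Ms4a7, which marks macrophages of blood origin, was at 0 in the IgG and anti-CTLA-4 pools and in 8 of 243 depletion cells, none with 3 UMIs or more. Of 8 monocyte genes, summing to 1724, 247 and 541 CPM, 4, 5 and 0 were at 0, and 27 of the 28 IgG UMIs of Ly6c2 lay in 1 cell. The same genes summed to 528, 1160 and 1170 CPM in class II-rich cells and to 109 CPM in healthy microglia. Under IgG the class II-poor cells thus stood above both. Of 8 neutrophil genes, summing to 292, 1688 and 673 CPM, 7, 4 and 3 were at 0, and all 41 anti-CTLA-4 UMIs of S100a8 lay in 1 cell. S100a8 was at 686 CPM in healthy microglia, where 1647 of 2885 UMIs lay in 1 cell, and at 295 CPM without that cell. It had a UMI in 34.8% of healthy T cells, a cell type that should lack it. All 7 T cell genes were at 0 under IgG and anti-CTLA-4, and 6 of 7 under depletion. These 7 include CD3 genes, which the gate itself held at 0. No doublet caller was run. Whether mixed droplets or free RNA add to the differences below was not tested.

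The pools differed in size and in RNA makeup. They held 78885, 77008 and 1386991 UMIs under IgG, anti-CTLA-4 and depletion, against 4205624 in healthy microglia, out of libraries of 7950206 to 21471565 UMIs. Ribosomal protein genes took 15.6%, 10.2% and 20.9% of UMIs and mitochondrial genes 1.43%, 1.21% and 2.81%, against 10.9% and 1.60% in healthy microglia. Both were highest under depletion, and their part in the lower homeostatic levels there was not tested. Xist was at 169, 159 and 2093 UMIs in the tumor pools and at 0 in the healthy one, so the healthy mice differed in sex from the tumor mice, and sex-linked genes were left out.

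Homeostatic genes gave the clearest order of the libraries. Their 17 genes summed to 54003 CPM in class II-poor cells under IgG, 90536 CPM under anti-CTLA-4 and 32076 CPM under depletion, against 100585 CPM in healthy microglia. Anti-CTLA-4 stood 1.68 times above IgG (1.61 to 1.74) and close to healthy brain, and depletion stood 1.68-fold below IgG (1.63 to 1.74) and 2.82-fold below anti-CTLA-4 (2.75 to 2.89). Class II-rich cells kept the same order at lower levels, 36535, 46060 and 24189 CPM. The sum is led by Cst3, a secreted protease inhibitor, at 27179, 52735 and 16522 CPM, and includes the 5 gate genes. Without those 5, the other 12 genes summed to 48501, 81420, 28844 and 88802 CPM in the same order of pools.

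The counts over single homeostatic genes are given with and without the gate genes, since the choice used the latter. A gene of a list is counted here when its CPM ratio passed 1.5, among genes with at least 20 UMIs in both pools together and at least 5 expected in the smaller one. Anti-CTLA-4 against IgG had 8 of 17 homeostatic genes higher and 0 lower (median log2 ratio 0.54), and 5 of 12 and 0 without the gate genes, where 18.9% of all 1262 genes measured were higher and 17% lower (median 0.03). Depletion against IgG had 0 of 16 higher and 12 lower (median -0.97), and 0 and 8 of 11 without the gate genes (median -0.78), where 23.6% of 2280 were higher and 20.8% lower. Depletion against anti-CTLA-4 had 16 of 16 lower (median -1.54), and 11 of 11 without the gate genes (median -1.48), where 25% of 2207 were higher and 25.3% lower. These comparisons share libraries, so they are not separate evidence for one another.

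The receptors of the set showed the range. P2ry12, the ADP receptor through which microglial processes sense injury, was at 1242 CPM under IgG (98 UMIs in the pool), 2389 CPM under anti-CTLA-4 (184 UMIs), 585 CPM under depletion and 3441 CPM in healthy microglia, but it is a gate gene. P2ry13, a related purine receptor outside the gate, was at 507, 623, 102 and 656 CPM in the same order of pools. It was thus near the healthy level in the first 2 tumor libraries and 4.95-fold lower under depletion than under IgG (3.40 to 7.08). Selplg, the P-selectin ligand PSGL-1, was at 2104, 3220, 734 and 2951 CPM. Cx3cr1 was at 3537, 5155, 1800 and 6442 CPM, and Tgfbr1, a TGF-beta receptor chain, at 875, 922, 329 and 1096 CPM. For Tgfbr1 the IgG and anti-CTLA-4 pools did not differ beyond counting error (ratio 1.05, 0.746 to 1.49), whereas depletion was 2.65-fold below IgG (2.03 to 3.43). Sparc, a secreted matrix protein of microglia and a gate gene, was at 1940, 2519 and 1663 CPM, under depletion and IgG not separated by counting error (1.17-fold lower, 0.984 to 1.37).

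Cell by cell, the 12 homeostatic genes outside the gate took a median of 5.43% of UMIs under IgG, 8.92% under anti-CTLA-4, 2.72% under depletion and 9.01% in healthy microglia. The class II-rich medians were 3.71%, 5.09% and 1.99%. The healthy 5th percentile, 5.97%, was reached by 6 of 20 IgG cells (30.0%, 11.9 to 54.3), 16 of 19 anti-CTLA-4 cells (84.2%, 60.4 to 96.6) and 48 of 243 depletion cells (19.8%, 14.9 to 25.3). Most class II-poor cells under anti-CTLA-4 therefore had a healthy-like level, and most of those under depletion did not. Among class II-rich cells 49 of 233, 73 of 187 and 34 of 277 reached it. In the depletion library 195 of 243 class II-poor cells were thus low in class II without a healthy-like level.

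**Figure D3:**
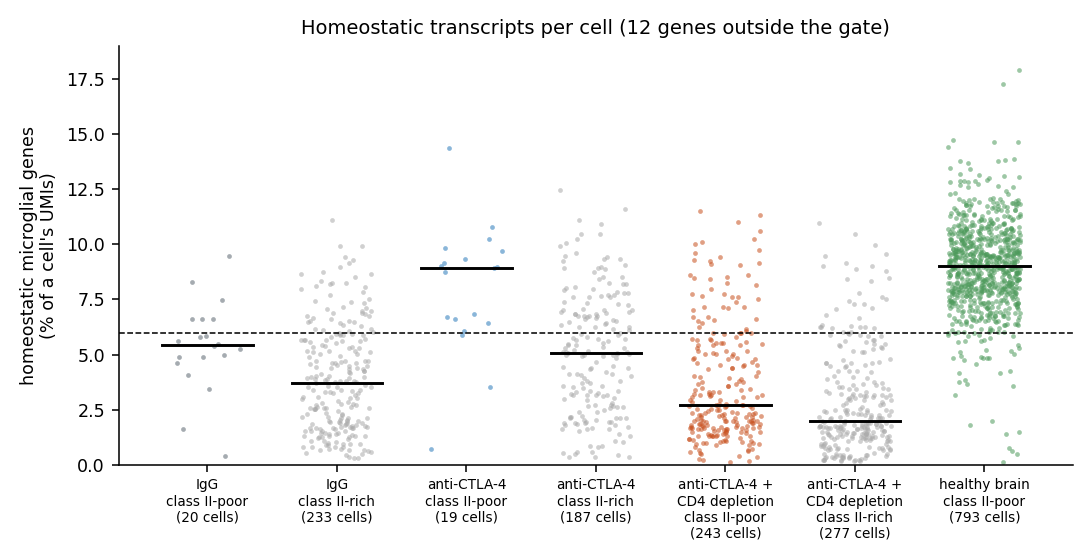
Percentage of each cell's UMIs from 12 homeostatic genes outside the gate (y axis) for class II-poor and class II-rich cells of each tumor library and for healthy microglia. Each point is a cell, the black bars are medians, and the dashed line is the healthy 5th percentile (5.97%), which 16 of 19 anti-CTLA-4 but 48 of 243 depletion class II-poor cells reached.

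The depletion cells below that level were the deeper ones. Those above it had a median of 3382 UMIs and those below it 5849, with ribosomal shares of 12.3% and 22.1% and median mitochondrial shares of 1.15% and 2.35%. This is a range of a score and not a cell type, and 8 and 11 cells lay within 0.5 percentage points of the limit. Apoe, which encodes the lipid carrier apolipoprotein E, was at 2147 CPM in the 48 cells above and 15267 CPM in the 195 below. Spp1, which encodes the secreted phosphoprotein osteopontin, was seen in 4 of 48 and 55 of 195. Fn1, the matrix protein fibronectin, was seen in 1 of 48 and 78 of 195, and Id2, an inhibitor of DNA binding, in 6 of 48 and 124 of 195. Deeper cells show more genes, and these shares were not matched for depth.

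Interferon-response genes were highest in the IgG class II-poor cells. The interferon-gamma list summed to 4259 CPM under IgG, 1234 CPM under anti-CTLA-4, 1304 CPM under depletion and 366 CPM in healthy microglia. Depletion stood 3.27-fold below IgG (2.90 to 3.67), and anti-CTLA-4 3.45-fold below it (2.74 to 4.38). The class II-rich cells ran differently, at 4022, 5108 and 1823 CPM, under anti-CTLA-4 above IgG. Whether class II-poor and class II-rich cells differ in this was not tested. Of the list's measured genes, 4 of 6 were lower under anti-CTLA-4 than under IgG, where 17% of all measured genes were. Under depletion 6 of 7 were lower than under IgG (median -1.44), where 20.8% of all were. None of the list was higher in either comparison. Per cell the list took a median of 0.221%, 0.052%, 0.060% and 0.027% of UMIs, so the order did not rest on 1 cell alone.

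Cxcl10, a chemokine that draws CXCR3-bearing T cells, was at 1648, 104 and 373 CPM under IgG, anti-CTLA-4 and depletion, but its 130 IgG UMIs came from 3 cells, 65 of them from 1. Rsad2, the antiviral enzyme viperin, was at 824, 77.9 and 93.0 CPM, and 59 of its 65 IgG UMIs came from 1 cell. The type I interferon list summed to 4234, 1415 and 1609 CPM and took a median of 0.103%, 0.046% and 0.058% per cell. All 7 of its measured genes were lower under anti-CTLA-4 than under IgG (median -1.74), where 17% of all measured genes were. Under depletion 8 of 10 were lower than under IgG (median -1.56), where 20.8% of all were. Under anti-CTLA-4, 23 of 24 UMIs of Isg15, 12 of 14 of Ifit3 and all 6 of Rsad2 lay in 1 cell per gene. The highest anti-CTLA-4 cell took 2.74% for the type I list, and the highest for the interferon-gamma list took 1.70%. For single interferon genes the IgG and anti-CTLA-4 values thus lean on a few cells, as do the anti-CTLA-4 list sums, which the per-cell medians do not.

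MHC class I stayed high where class II was low. The class I list summed to 15618, 12103 and 11824 CPM under IgG, anti-CTLA-4 and depletion, 2.55 to 3.36 times the 4643 CPM of healthy microglia. B2m, the light chain of class I, was at 4995, 3740 and 4490 CPM, against 2187 CPM in healthy microglia, and was seen in 19 of 20, 19 of 19 and 242 of 243 cells. H2-K1, a class I heavy chain, was at 3169, 2441 and 2097 CPM, against 542 CPM, so every tumor pool stood above healthy brain. H2-Q7, a class Ib gene, was at 304, 195 and 283 CPM against 9.99 CPM, but reads of H2-Q7 and its near copy H2-Q6 can be split between them. Against healthy brain 9 of 10, 7 of 10 and 9 of 12 measured class I genes were past 1.5-fold higher and none lower, where 11%, 10.5% and 12.5% of all measured genes were higher. Class II-rich cells were higher still in the sum in each library, at 4.44, 4.38 and 2.88 times healthy under IgG, anti-CTLA-4 and depletion.

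Apoe was highest under depletion, and the rest of its list was not. The lipid-handling list summed to 7936, 2857 and 15686 CPM under IgG, anti-CTLA-4 and depletion, against 3475 CPM in healthy microglia, and is led by Apoe. Without Apoe it summed to 1965, 1247 and 1921 CPM, against 1421 CPM. Of 4 measured genes 1 was higher under depletion than under IgG and none lower, near the 23.6% of all measured genes that were higher. Apoe was at 5971 CPM under IgG, where 219 of 471 UMIs came from 1 cell, at 1610 CPM under anti-CTLA-4, where 89 of 124 did, at 13764 CPM under depletion and at 2054 CPM in healthy microglia. It was seen in 12 of 20, 8 of 19 and 202 of 243 cells, and in 37.4%, 23.7% and 35.5% of T cells, so a single UMI of Apoe says little. Without the richest cell of each pool Apoe stood at 3611, 494 and 13286 CPM. Depletion was 2.31 times IgG (2.10 to 2.53) and 8.55 times anti-CTLA-4 (7.16 to 10.3). Class II-rich cells held 11618, 7745 and 14129 CPM, so the gap between libraries was smaller there.

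The disease-associated list, genes that microglia raise around damage and amyloid, summed to 22045, 17777 and 31715 CPM, against 17598 CPM in healthy microglia. Apoe is also in this list, at 5971 CPM under IgG, 1610 CPM under anti-CTLA-4 and 2054 CPM in healthy microglia. Its higher depletion level, given above, makes up most of the excess of the depletion sum, and Spp1 adds 1153 CPM there. Of its measured genes 0 of 7 were higher and 1 lower under anti-CTLA-4 than under IgG, where 18.9% and 17% of all were. Under depletion 4 of 13 were higher and 1 lower than under IgG, near the 23.6% of all measured genes that were higher. Against anti-CTLA-4, depletion had 9 of 13 higher and 1 lower (median 1.32), where 25% of all were higher. Cd63, a tetraspanin of late endosomes, was at 482, 351 and 1563 CPM, and depletion was 3.24 times IgG (2.36 to 4.60). Trem2, the lipid-sensing receptor of this response, was at 1863, 2714 and 1743 CPM, against 2490 CPM in healthy microglia, and so was not higher under depletion. Lpl, a lipase often listed with Spp1 and Apoe, was at 12.7, 13 and 30.3 CPM, against 73.7 CPM in healthy microglia. The first 2 of these levels are 1 UMI each.

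Spp1 and Fn1 were seen almost only in the depletion cells among the class II-poor ones. Spp1 had 0 UMIs under IgG, 1 under anti-CTLA-4, 1599 under depletion (1153 CPM) and 30 in healthy microglia (7.13 CPM). Of the depletion UMIs 638 lay in 1 cell, and the level without that cell was 702 CPM. Against a floor of 3 counts in the IgG pool, Spp1 was at least 30.3-fold higher under depletion. It had a UMI in 24.3% of depletion cells (19 to 30.2) and in 3.70% of T cells there (2.66 to 5.00). Those T cells were chosen without gate-gene UMIs, and the part of free RNA or mixed droplets was not tested. The 0 of 20 IgG cells allow a share of up to 16.8% by the exact interval. Class II-rich cells had Spp1 in every library, at 312, 102 and 645 CPM, and Spp1 was thus not particular to class II-poor cells.

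Fn1 had 2 UMIs under IgG, 0 under anti-CTLA-4 and 954 under depletion (688 CPM, 79 of 243 cells), against 18.5 CPM in healthy microglia. T cells of the depletion library had it in 4.63%. The anti-CTLA-4 pool was at 0, and depletion was at least 17.7-fold above its floor of 3 counts. Of the 59 depletion cells with Spp1, 39 also had Fn1 (66.1%), against 21.7% of the rest. The Spp1 cells were deeper, with a median of 6797 against 4346 UMIs, and the pairing was not matched for depth.

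**Figure D4:**
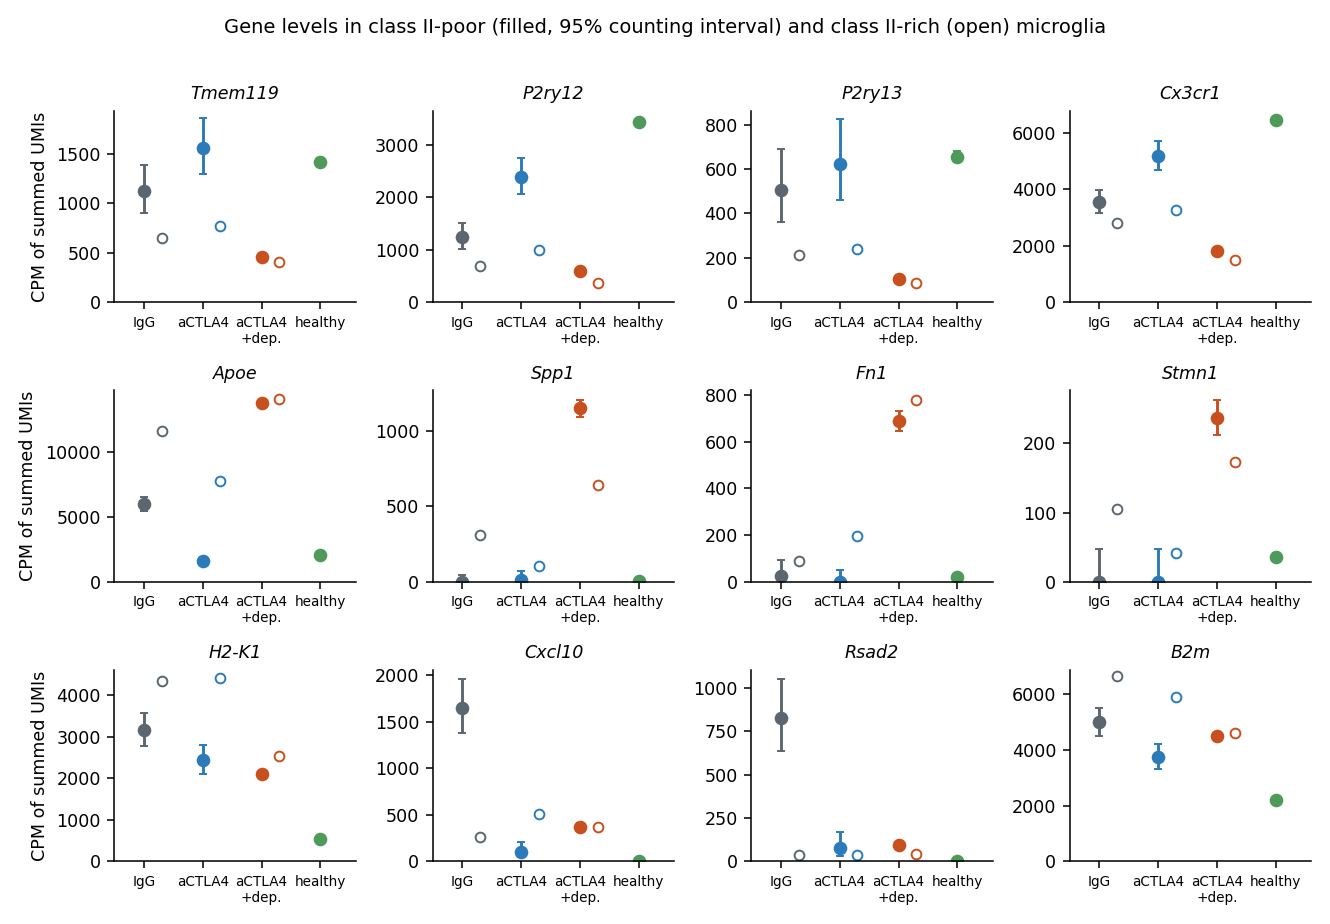
Levels of 12 genes (y axis, CPM of summed UMIs) in class II-poor cells (filled, with 95% counting intervals) and class II-rich cells (open) of the IgG, anti-CTLA-4 (aCTLA4) and anti-CTLA-4 with CD4 depletion libraries, and in healthy microglia. P2ry13 is near the healthy level under IgG and anti-CTLA-4 and lowest under depletion, whereas Spp1, Fn1 and Stmn1 are at or near 0 in the class II-poor cells of the first 2 libraries.

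Chemokine and cytokine genes set the anti-CTLA-4 cells apart from both others. The list summed to 6123 CPM under IgG, 1052 CPM under anti-CTLA-4 and 4153 CPM under depletion, against 562 CPM in healthy microglia. Against healthy microglia these sums stood at 10.9, 1.87 and 7.39 times, and those of class II-rich cells at 7.69, 7.29 and 6.92 times. Per cell the medians were 0.128%, 0.045%, 0.222% and 0.026%, which puts depletion above IgG, the reverse of the sums. Ccl12, a monocyte-drawing chemokine, was at 3714, 286 and 1653 CPM. Its 293 IgG UMIs lay in 10 of 20 cells with 155 in 1, its 22 anti-CTLA-4 UMIs had 18 in 1 cell, and 187 of 243 depletion cells had it. Ccl4, a chemokine, had 65, 0 and 609 UMIs, 45 and 323 of them in 1 cell each. All 9 measured genes were higher under depletion than under anti-CTLA-4 (median 2.53), where 25% of all measured genes were. Of the 15 genes of the list 7 were at 0 under anti-CTLA-4, and such a gene could only count as higher. Il1b, of the same list but with too few UMIs to be counted, was 7.11-fold lower under depletion than under anti-CTLA-4 (3.63 to 13.2). Of its 15 anti-CTLA-4 UMIs 14 lay in 1 cell. Against IgG 4 of 10 measured genes were higher and 3 lower (median 0.29), where 23.6% and 20.8% of all were. With the richest cell of each gene left out, the median against IgG was 1.83.

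Cell-cycle genes were seen in the depletion cells. The proliferation list summed to 431, 351 and 1577 CPM, against 490 CPM in healthy microglia. All 6 measured genes were higher under depletion than under IgG (median 1.29) and than under anti-CTLA-4 (median 1.25). Of all measured genes, 23.6% and 25% were higher in these comparisons. Of the 12 genes of the list, however, 9 were at 0 in the IgG pool and 9 in the anti-CTLA-4 pool. A gene at 0 there could only count as higher under depletion, so these counts of genes are a description. Stmn1, a microtubule regulator of dividing cells, had 0, 0 and 328 UMIs (236 CPM, 67 of 243 cells), and 35.9 CPM in healthy microglia, and 10.6% of depletion T cells had it. Hmgb2, a chromatin protein, was at 127, 64.9 and 428 CPM. A UMI of Mki67 or Top2a was seen in 0 of 20, 0 of 19 and 36 of 243 cells (14.8%, 10.6 to 19.9). Among cells of at least 1000 UMIs thinned to that depth, 0%, 0% and 6.78% had one, against 2.25%, 2.14% and 5.43% in class II-rich and 0.130% in healthy microglia. The 16 and 18 IgG and anti-CTLA-4 cells of that depth allow up to 20.6% and 18.5% by the exact interval, so a share like that of depletion was not detectable there.

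The TGF-beta list, which shares Tgfbr1 and the gate gene Sparc with the homeostatic one, followed it. Depletion had 5 of 9 measured genes lower than IgG, where 20.8% of all measured genes were. Against anti-CTLA-4 9 of 9 were lower (median -1.05), where 25.3% of all were. None of the list was higher in either comparison. Against healthy microglia the list sum stood at 0.634 times under IgG, 0.812 under anti-CTLA-4 and 0.403 under depletion. Tgfb1, the ligand, was at 368, 299 and 154 CPM, against 317 CPM, and Smad7, an inhibitor that TGF-beta itself induces, at 114, 364 and 145 CPM, against 250 CPM. The phagocytosis and complement list varied little, at 1.08, 1.24 and 1.08 times healthy. Immediate early genes, which tissue dissociation can raise, were lower than in healthy microglia in every tumor pool, at 0.755, 0.584 and 0.501 times.

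**Figure D5:**
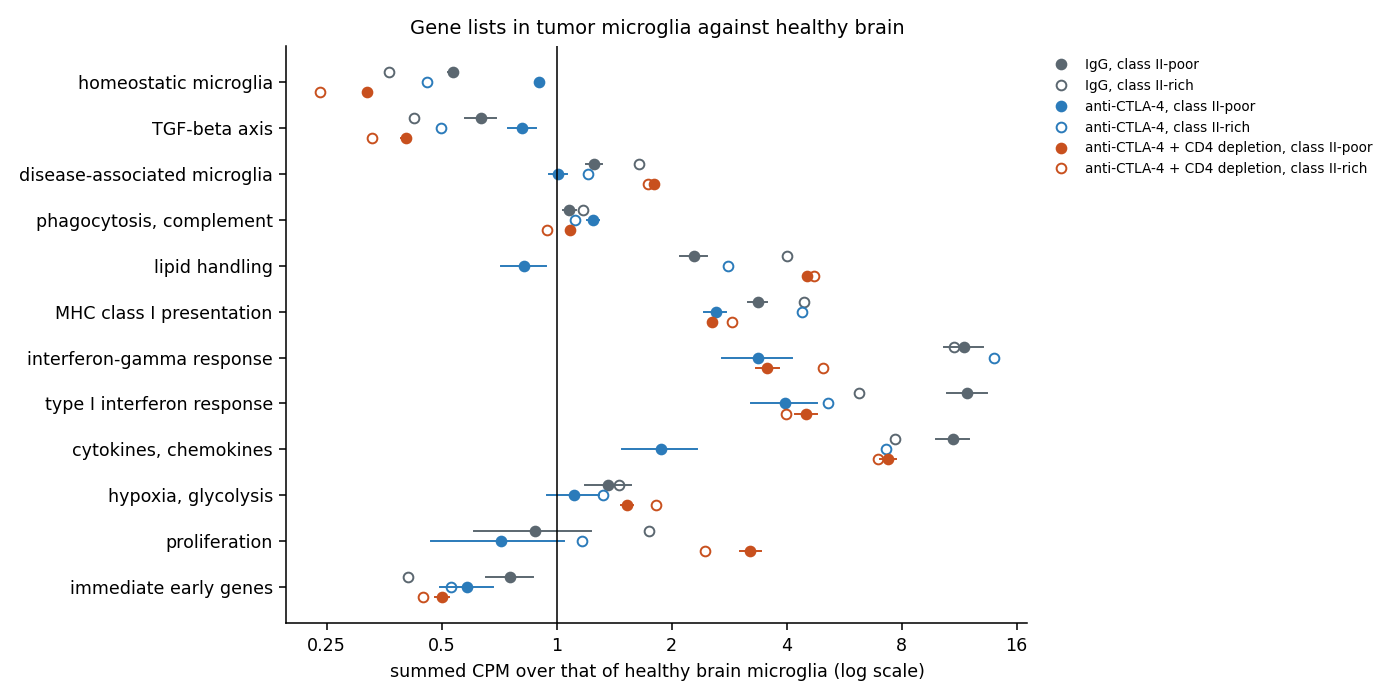
Summed CPM of 12 gene lists over that of healthy brain microglia (x axis, log scale) in class II-poor cells (filled, 95% counting intervals) and class II-rich cells (open) of the 3 tumor libraries. Homeostatic genes stand at 0.537, 0.900 and 0.319 times healthy in class II-poor cells under IgG, anti-CTLA-4 and depletion. The sums of all 3 pools stand above healthy in class I and interferon-response genes. Under anti-CTLA-4 the interferon sums lean on few cells, with 23 of 24 UMIs of Isg15 in 1 cell.

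Across all genes, a gene was counted as different between 2 pools when its CPM ratio reached 2, if it had 50 UMIs over both and was seen in at least 10% of cells of the higher pool. Anti-CTLA-4 against IgG had 14 genes higher and 26 lower of 434 (9.22%), and all 40 counting intervals excluded 1. These 2 pools were of near equal size, where a ratio of 2 on 50 UMIs always gives such an interval. That count of intervals thus follows from the rule and adds nothing to it. Hpgd, which degrades prostaglandins, was at 152 CPM under IgG and 714 CPM under anti-CTLA-4, a ratio of 4.70 (2.48 to 9.63). Crybb1, a crystallin gene of mature microglia, was at 216 and 974 CPM, and Glul, glutamine synthetase, at 330 and 844 CPM. Their healthy levels were 641, 576 and 791 CPM, so Hpgd and Glul were near them under anti-CTLA-4 and Crybb1 was above. The first 4 by rank among the lower genes were Ccl4, Cxcl10, Ccl12 and Rsad2. The IgG UMIs of Ccl4 came from 3 cells, as did those of Cxcl10, and most of those of Rsad2 from 1. Ccl12, seen in 10 of 20 IgG cells, still stood at 1848 CPM under IgG and 56.5 CPM under anti-CTLA-4 without the richest cell of each pool.

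Depletion against IgG had 481 genes higher and 442 lower of 3907 (23.6%), and 475 of the 923 intervals excluded 1. The pools differ about in the proportion of 1386991 to 78885 UMIs, so a gene of few IgG UMIs passes a ratio of 2 easily. Of genes with at least 10 UMIs expected in the smaller pool, 138 were higher and 72 lower of 1096 (19.2%). Depletion against anti-CTLA-4 had 514 higher and 587 lower of 3906 (28.2%), with 649 intervals excluding 1, and 182 higher and 99 lower of 1071 (26.2%) at 10 expected UMIs. Scaling by the median of gene ratios in place of the total moved the split to 874 higher and 177 lower against IgG and to 1053 and 167 against anti-CTLA-4, as it shifted the median log2 ratio of all genes from 0.02 to 0.40 and from 0.00 to 0.50. The homeostatic list stayed on the lower side under it, with medians of -0.59 and -1.04. In class II-rich cells 1.15%, 6.82% and 8.83% of genes passed in the same 3 comparisons, on pools of 1376617 to 2493282 UMIs.

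The 8 genes that ranked first in depletion against IgG were Spp1, S100a8, Fn1, Stmn1, S100a9, Id2, Ifitm2 and Mt1. S100a8 and S100a9, abundant in neutrophils, had 0 UMIs each under IgG, 41 and 57 under anti-CTLA-4, all in 1 cell per gene, and 508 and 264 under depletion. Under depletion they were seen in 18.9% and 15.2% of class II-poor cells and in 11.1% and 10.1% of T cells, and 180 of the S100a8 UMIs lay in 1 cell. With at least 5 gate UMIs asked of a cell, the log2 ratio to the floor of the IgG pool went from 3.27 to 0.76 for S100a8 and from 2.32 to 0.125 for S100a9, which ended both calls. Ifitm2, an interferon-induced membrane protein, had 1 UMI under IgG and 391 under depletion. Id2 had 1, 0 and 417 UMIs (301 CPM, 130 of 243 cells). T cells of that library, which express it, had it in 67.3%. Mt1, a metallothionein, was at 63.4, 156 and 637 CPM, a ratio of depletion to IgG of 10.1 (4.29 to 31.0), and was seen in 7.50% of T cells. Rbm3, a cold-inducible RNA-binding protein, was at 152, 77.9 and 1106 CPM, 7.27 times IgG (4.15 to 14.1) and 14.2 times anti-CTLA-4 (6.51 to 38.7). In class II-rich cells Rbm3 was 3.50 times IgG under depletion (3.17 to 3.86), so the direction was shared.

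Against healthy microglia, 78 genes were at least 2-fold higher (1.23%) and 70 at least 2-fold lower (1.1%) of 6357 in all 3 class II-poor pools. Gbp2, an interferon-induced GTPase, was at 190, 208 and 69.9 CPM, against 4.28 CPM, though 14 of its 16 anti-CTLA-4 UMIs lay in 1 cell. Ifit3, an interferon-induced protein, was at 608, 182 and 146 CPM, against 12.6 CPM, and its reads can be shared with Ifit3b. Of its 14 anti-CTLA-4 UMIs 12 lay in 1 cell, and the level without that cell was 26.9 CPM. Of its 48 IgG UMIs, 24 lay in 1 cell and 22 in another. Arsb, a lysosomal sulfatase, was at 63.4, 143 and 136 CPM, against 435 CPM, and so 3.05- to 6.87-fold lower. Most other lower genes, such as Bank1 and Plxna4, had 1 UMI in each small pool, and their size there is not known. Of the 12 homeostatic genes outside the gate, 7 were lower than healthy under IgG (median -0.66), 1 under anti-CTLA-4 (median -0.23) and 12 under depletion (median -1.73), where 28.3%, 18.7% and 40.8% of all measured genes were lower. Type I interferon genes were measured in number only under depletion, where 14 of 14 were higher (median 2.94), against 12.5% of all.

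Within each library, class II-poor and class II-rich cells differed in few genes by the same amount everywhere, and since class II chose the cells these are descriptions. Of 5610 genes, 7 were at least 2-fold higher (0.125%) and 13 lower (0.232%) in class II-poor cells of all 3 libraries. H2-Aa, H2-Eb1, H2-Ab1 and Cd74 led the lower ones, followed by Cxcl9, an interferon-gamma-induced chemokine, at 12.7, 0 and 48.3 CPM against 744, 1285 and 242 CPM. Ccl5, a T cell-attracting chemokine, was at 165, 26.0 and 241 CPM against 1246, 1369 and 641 CPM. Of the higher ones, Pmp22, a membrane protein, was at 241, 260 and 273 CPM against 83.1, 94.4 and 136 CPM and was seen in 50%, 63.2% and 63.8% of class II-poor cells. Serpinf1, a secreted serpin, was at 38.0, 77.9 and 16.6 CPM against 16.3, 16 and 7.62 CPM, but its IgG and anti-CTLA-4 levels rest on 3 and 6 UMIs. In the depletion library, where both pools are large, only 36 genes were higher and 85 lower of 6713 (1.8%).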

How the data were processed

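Single immune cells of 4 mouse libraries (10x 3' chemistry), 1 per group, were analysed. The deposited matrices hold whole-number UMI counts for 27998 genes. They were made by the authors with Cell Ranger 3.1.0, per the file headers, on mm10, per the submitters' processing notes. Groups were taken from the sample titles.

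The cells were gated on these counts as stated above, and the UMIs of each pool were summed and scaled to a total of 1000000 (CPM). The exact conditional-binomial 95% interval of a CPM ratio and exact Clopper-Pearson intervals of shares were computed with Python 3.11.15, numpy 2.4.6, scipy 1.17.1 and pandas 2.3.3. A pool at 0 was set to a floor of 3 counts. T cells needed at least 3 CD3 UMIs and no UMI of the 5 microglial gate genes. No doublet caller was run, and cells with CD3 UMIs were gated out. The calculation was checked on simulated data. Genes were located in GENCODE vM21 (GRCm38), and promoter sequences came from RefSeq tables.

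Named genes were the 8 per direction and comparison that ranked first by the log2 ratio of CPM plus 20 past the 2-fold rule, plus the gate and marker genes and the genes of the lists. Ribosomal, mitochondrial, receptor-segment and 6 sex-linked genes were left out. The members, lists and rules were chosen with earlier results of these data known. Members of the lists were counted at 1.5-fold. Alternatives covered scaling, depth, thinning to 1000 UMIs, the class II limit, the marker minimum, the fold and the low-count filter.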

Additional observations from a re-analysis of the deposited data

How the results depend on the processing

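No paired analysis was possible because each group had 1 library and no result came from a test. The alternatives that left out the richest cell of each gene, asked for at least 10 expected UMIs, counted cells at 0 after thinning, or removed cells with genes of other myeloid or B cells were chosen after the data were seen. The class II-poor share was highest under depletion in every alternative run, while the order of IgG and anti-CTLA-4 turned at limits of 2 and 8 UMIs and at a limit of 10 per 10000 UMIs. With IgG it went from 7.91% to 19.3% at a limit of 4 UMIs after thinning to 1000 UMIs and 13.4% at a limit of 8. With anti-CTLA-4 it went from 9.22% to 22.0% after thinning. With depletion it went from 46.7% to 77.1% after thinning, 37.7% at a limit of 2 and 56.2% at a limit of 8. The 40 genes between anti-CTLA-4 and IgG became 24 at 5 marker UMIs, 141 at 1.5-fold and 166 at 20 UMIs with no minimum share of cells. The 923 between depletion and IgG became 1844 at 1.5-fold, 1667 at 20 UMIs and 210 at 10 expected UMIs. The 1101 between depletion and anti-CTLA-4 became 2058, 1978 and 281 under the same 3. The split between higher and lower moved for anti-CTLA-4 against IgG from 14 and 26 to 7 and 33 without ribosomal and mitochondrial genes in the total, and to 15 and 12 without the richest cells. It moved for depletion against IgG to 571 and 341, and to 908 and 153, under these. Single genes changed sign in 6 cases. The log2 ratio of anti-CTLA-4 to IgG for Rsad2 was 0.078 at a limit of 2 class II UMIs. That of depletion to IgG was 0.38 for Ly6c2 at 5 marker UMIs, and 1.11 for Ly6c2 and 0.86 for Il1b without the richest cells. That of depletion to anti-CTLA-4 for Il1b was 0.33 at 5 marker UMIs and 0.83 without the richest cells. Of the values of named genes, 482 kept their direction and their side of 2-fold and 40 no longer passed it. Of the list medians, 468 stayed near their value and 27 moved, among them those of the interferon and chemokine lists. The causes were not tested. Pools of 20 and 19 cells limit every statement on IgG and anti-CTLA-4, since counting intervals leave out differences between cells.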
